A study of Rattus norvegicus with 28 samples.

Results

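Scara5 and 8 other genes of cellular iron handling were followed in cultured rat kidney fibroblasts under the profibrotic cytokine TGF-β, under methionine restriction and after knockdown of the homeobox gene Hoxc8. Scara5 was chosen by its own FPKM values in these libraries, where it stood high in control cells and low with TGF-β, and its levels are therefore given as a description with no test. The other 8 genes (Tfrc, Slc40a1, Slc11a2, Fth1, Steap3, Cp, Aco1 and Ireb2) were listed for their roles in iron uptake, storage, export and sensing. That list was made with earlier results of these data known, so the p-values below are not those of genes chosen in advance. All 9 are among the 30178 genes of the deposited expression table. Of the 9, 7 passed the filter on low values (at least 1 FPKM in at least 2 of the 8 libraries), and Fth1 and Slc40a1 did not. FPKM counts fragments relative to gene length and to the total of the library.

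The libraries were made from NRK-49F cells, a fibroblast line from normal rat kidney, in 4 groups of 2 libraries. The first group had TGF-β1 for 48 h in methionine-restricted medium (TGF-β with MetR), the second had TGF-β1 for 48 h and a small interfering RNA against Hoxc8 (TGF-β with siHoxc8), the third had TGF-β1 for 48 h alone, and the fourth was the untreated control, for which the labels give no time. Per the labels, the cells of every group had been starved for 24 h in 0.2% serum, TGF-β1 was given at 5 ng per μL (the unit the labels print), and methionine was 30 μM in the restricted medium against 200 μM in its control medium. For every group the labels also give 10% serum for growth and glucose at 4.5 g per L. The restricted medium was a mix of balanced salts, vitamins, amino acids and dialyzed serum, and the labels give the iron content of neither medium, nor do they say which medium the TGF-β and control libraries had, so that methionine and the rest of the medium cannot be told apart. They name no control siRNA for the RNA libraries, so the knockdown and the transfection cannot be told apart. Whether replicate libraries come from separate cultures is not stated either, and the p-values therefore reflect only how far these particular libraries differ, which may be technical. The series also holds 20 chromatin samples, which were not used here.

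The values of each gene were whole multiples of 1 step in each library, which gave back 15118113 to 20146870 reads per library. Hoxc8, the target of the siRNA, had 0.463 and 0.0771 FPKM in the TGF-β with siHoxc8 libraries, against 4.32 and 5.01 FPKM with TGF-β alone. The siHoxc8 values rest on 15 and 3 reads. Hoxc8 was also low with TGF-β and MetR, at 0.417 and 0.614 FPKM (18 and 23 reads), against 1.12 and 1.34 FPKM in control. Its mean was 0.52 FPKM with MetR and 0.27 FPKM with siHoxc8. Of 10 fibroblast markers 9 were in the deposited table and 7 averaged at least 1 FPKM, among them Col1a1, Col3a1, Vim and Pdgfrb. Thy1 was listed at 0, and Col1a2 and Dcn were either not in that table or averaged under 1 FPKM. The summed level of the fibroblast markers ran from 7650 to 14410 FPKM. Leukocyte markers summed to 0.552 to 2.73 FPKM and endothelial markers to 0.0974 to 0.934 FPKM. The sum of kidney epithelial markers was almost wholly Krt8, a keratin, and stood at 685 and 646 FPKM with TGF-β and siHoxc8, against 194 to 253 FPKM in the other 6 libraries, while Epcam, Umod and Aqp2 were listed at 0 in all 8; the part of this in the results below was not tested. The MetR libraries differed most from each other, with 372 genes at least 2-fold apart, against 152 to 166 in the other groups.

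Cells take up iron mainly as transferrin bound to the transferrin receptor, and some take up ferritin through SCARA5, a scavenger receptor of the cell surface. Iron freed in endosomes is reduced by STEAP3, carried into the cytosol by SLC11A2 (DMT1), stored in ferritin, whose heavy chain is FTH1, and exported by ferroportin, SLC40A1, with the help of ferroxidases such as ceruloplasmin, CP. When iron is scarce, the iron regulatory proteins IRP1 and IRP2, the products of Aco1 and Ireb2, bind hairpins in messenger RNAs, which stabilizes that of the transferrin receptor and blocks translation of those of ferritin and ferroportin. In the developing mouse kidney, SCARA5 is known as a ferritin receptor of stromal cells.

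Scara5, the ferritin receptor gene, had 5.61 and 2.15 FPKM with TGF-β and MetR, 0.139 and 0.0435 FPKM with TGF-β and siHoxc8, 1.25 and 1.22 FPKM with TGF-β alone, and 66.3 and 68.2 FPKM in control. The control libraries lay far above the other 6, and no 2 groups overlapped. With TGF-β alone the mean was 1.84% of the control mean, with MetR 5.78% and with siHoxc8 0.136%. In such bulk libraries, fewer cells with the transcript and less of it per cell cannot be told apart. Among the 7 genes that passed the filter, Scara5 had the highest level per length in control and the lowest in each of the other 3 groups.

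The lowest Scara5 values rest on few reads. The siHoxc8 libraries held 8 and 3 reads of the gene and the TGF-β libraries 77 and 76, which makes the level with siHoxc8 14.2-fold lower than with TGF-β alone (95% interval 7.72 to 29.0, exact Clopper-Pearson). The MetR libraries held 430 and 143 reads, and the ratio of MetR to TGF-β alone was 3.24 (95% interval 2.71 to 3.90). Both intervals rest on the pooled reads of the 2 libraries of each group and cover counting error only. They leave out the difference between libraries, such as 5.61 and 2.15 FPKM in the MetR group. Scara5 was chosen by these values, so the intervals are no test. In the order control, MetR, TGF-β alone and siHoxc8, the step between MetR and TGF-β alone (means of 3.88 ± 2.45 and 1.23 ± 0.0211 FPKM, SD, n = 2 each) was only slightly larger than the SD of the MetR libraries, whereas the other steps were several times the SD of either group beside them.

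**Figure D1:**
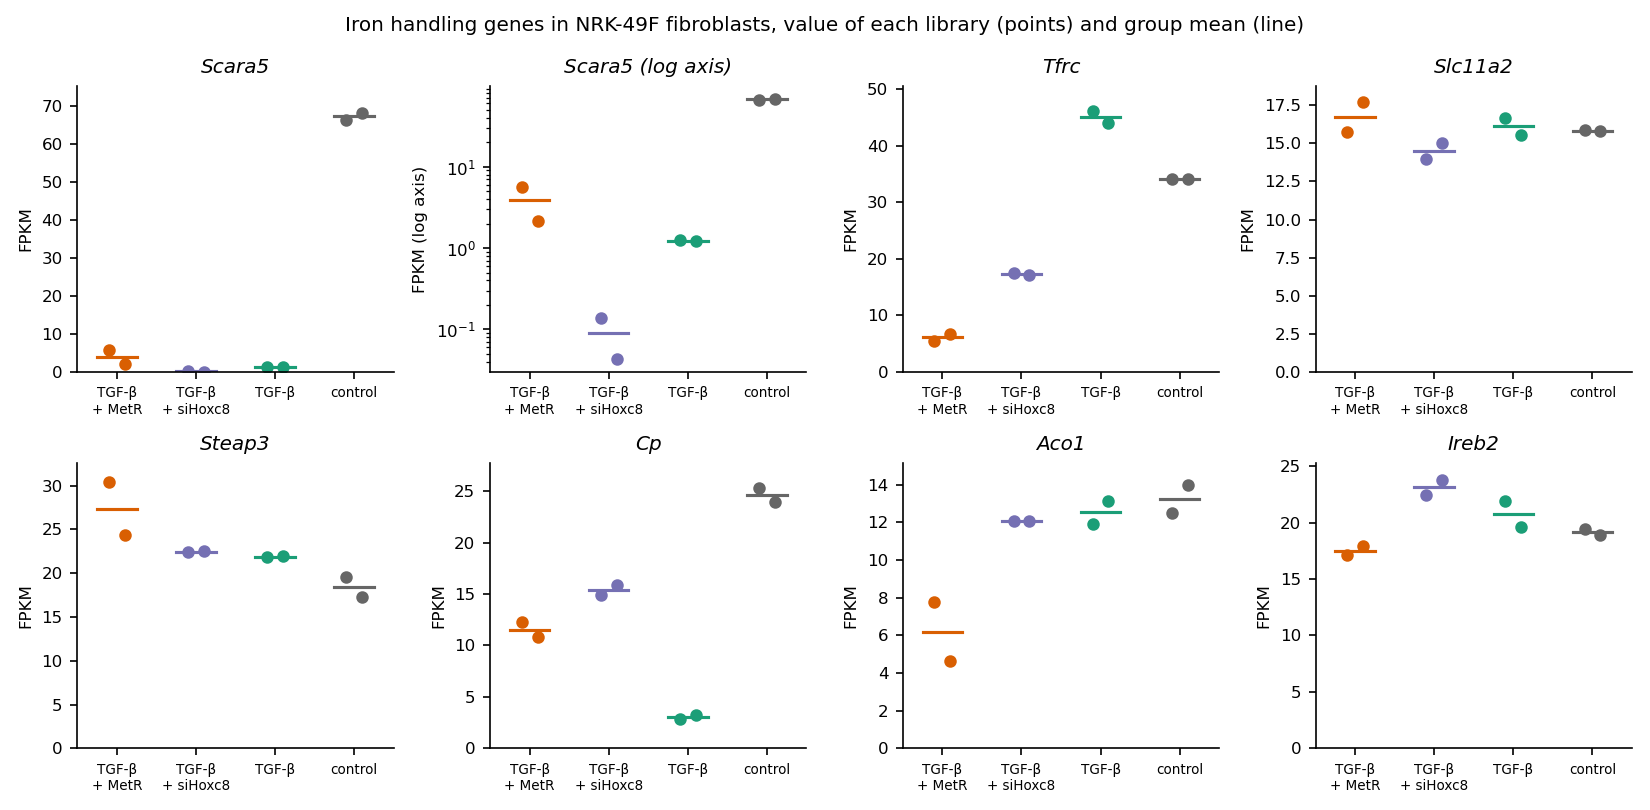
FPKM of each library (points, 2 per group) and the group mean (line) for the 7 genes that passed the filter, with Scara5 on a linear and on a log axis. Scara5 stands at 66.3 and 68.2 FPKM in control and at or below 5.61 FPKM elsewhere, Cp is lowest with TGF-β alone, and Tfrc is lowest with TGF-β and MetR.

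The genes with the pattern most like that of Scara5 were sought among 9114 tested genes that reach 5 FPKM, by the root mean square difference of log2(FPKM + 1), centred on each gene, over the 8 libraries. The 5 nearest were Aldh3a1 (0.49), Btc (0.49), Selenop (0.57), Sema3d (0.62) and Col14a1 (0.70), where the median gene lay at 2.28. Aldh3a1 encodes an aldehyde dehydrogenase, Btc the growth factor betacellulin, Selenop a selenium transport protein, Sema3d a secreted semaphorin and Col14a1 a collagen of fibril surfaces. Btc, for example, had 5.22 and 1.58 FPKM with MetR, 0.375 and 0.357 FPKM with siHoxc8, 1.499 and 1.95 FPKM with TGF-β alone, and 41.04 and 32.8 FPKM in control. Like Scara5, all 5 were lower in MetR replicate 2 than in MetR replicate 1, and all 5 were at or below 17.5% of their control mean in each TGF-β group. The 5 were picked for likeness over these same libraries, so the shared pattern follows largely from that choice and is a description only.

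**Figure D2:**
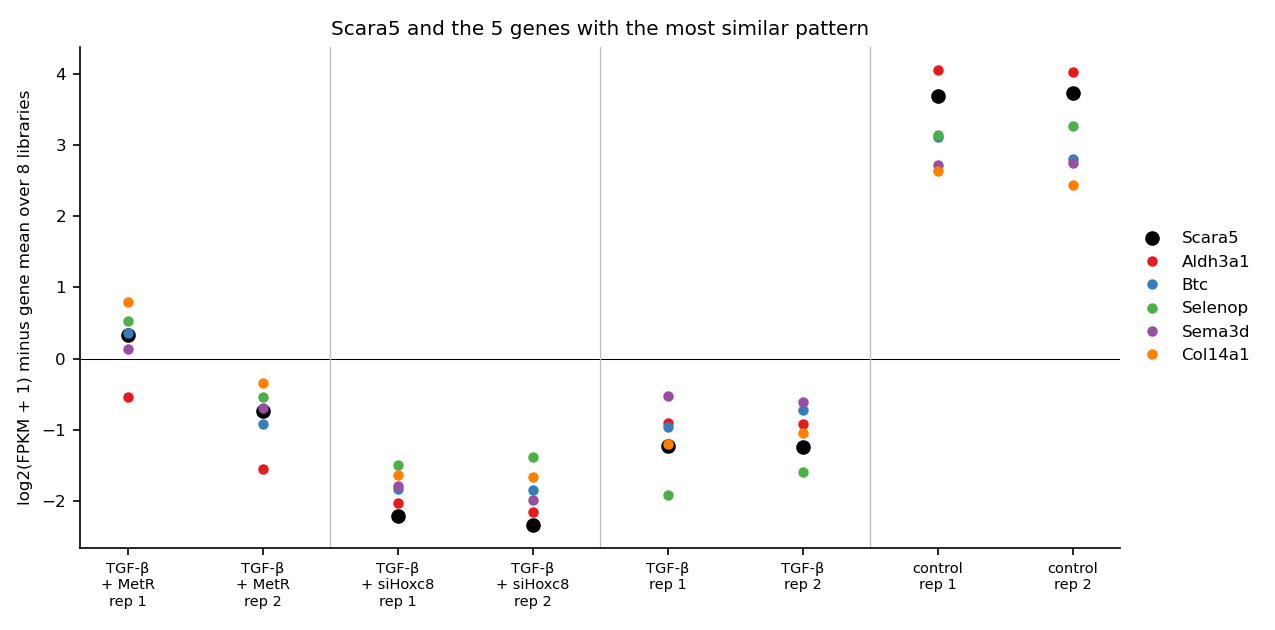
Log2(FPKM + 1) minus the mean of each gene over the 8 libraries, for Scara5 (black) and the 5 genes with the most similar pattern, by library. All 6 genes lie more than 2 above their mean in both control libraries and below it in the siHoxc8 and TGF-β libraries.

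Tfrc, the transferrin receptor gene, had 5.54 and 6.68 FPKM with TGF-β and MetR, 17.4 and 17.2 FPKM with TGF-β and siHoxc8, 46.1 and 43.9 FPKM with TGF-β alone, and 34.2 FPKM in both control libraries. The 4 groups stood apart, with MetR lowest and TGF-β alone highest. Changes are given as log2 fold changes of FPKM + 1 with their SE from limma, fitted over all 12315 tested genes, with p-values adjusted by the Benjamini-Hochberg method over those genes and a gene called at an adjusted p under 0.05. Tfrc fell with MetR against TGF-β alone (-2.70 ± 0.11, adjusted p = 1.84e-05, 7.37-fold lower), the 26th largest fall of 12315. It also fell with siHoxc8 against TGF-β alone (-1.33 ± 0.11, adjusted p = 0.000125, 2.60-fold lower).

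Both combined treatments put Tfrc below control as well, at 17.9% of the control mean with MetR (-2.31 ± 0.11, adjusted p = 1.17e-05) and 50.7% with siHoxc8 (-0.94 ± 0.11, adjusted p = 0.000398). The rise with TGF-β alone over control was small (0.39 ± 0.11, adjusted p = 0.0242). That call was lost without either control library, either TGF-β library or either siHoxc8 library (adjusted p = 0.126, 0.123, 0.0889, 0.0593, 0.0560 and 0.0559), and the adjusted p ran between 0.0016 and 0.126 across the alternatives that give a p of their own. A 2-fold minimum, which has none, also ended the call, and the ranges of adjusted p given for other genes leave it out too. The comparisons with TGF-β alone share its 2 libraries, as those with control share the control libraries.

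Of the 9 genes, 7 have a start region in the RefSeq table of build GRCr8, and Scara5 and Fth1 have none there. The 250 bases before the annotated start are shown for Tfrc and Cp, the members other than Scara5 with the largest changes. Capitals mark matches, on either strand, to ACGTG (core of the hypoxia response element), TGACGT (core of the cyclic AMP response element), CAGAC (a Smad binding motif) or TGACNNNGC (core of the antioxidant response element). The first 2 of these can overlap, but do not overlap here.
Tfrc, chr11:81690319-81690568, minus strand: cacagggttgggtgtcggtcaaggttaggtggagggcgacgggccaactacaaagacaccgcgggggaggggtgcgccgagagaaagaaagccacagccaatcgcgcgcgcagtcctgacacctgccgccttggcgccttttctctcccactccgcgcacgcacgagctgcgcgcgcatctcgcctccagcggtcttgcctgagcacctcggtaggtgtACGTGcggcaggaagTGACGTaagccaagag
Cp, chr2:104368420-104368669, plus strand: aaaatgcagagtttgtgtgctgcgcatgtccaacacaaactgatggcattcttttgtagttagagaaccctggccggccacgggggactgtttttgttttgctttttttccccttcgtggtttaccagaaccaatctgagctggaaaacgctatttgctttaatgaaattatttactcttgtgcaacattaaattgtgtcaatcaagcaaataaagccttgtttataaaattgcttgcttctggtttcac
The Tfrc window holds 1 match to ACGTG, found in 16.6% of all 33469 windows of that length, and 1 to TGACGT, found in 6.95%. The Cp window holds no match to any of the 4 motifs. CAGAC, found in 42.9% of windows, occurs in those of Aco1, Ireb2 and Steap3, and TGACNNNGC (10.1%) in none of the members' windows. Matches are letters in 1 annotated window and were not tested for binding.

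Cp, the ferroxidase gene, had 12.2 and 10.8 FPKM with TGF-β and MetR, 14.9 and 15.9 FPKM with TGF-β and siHoxc8, 2.89 and 3.22 FPKM with TGF-β alone, and 25.3 and 24.0 FPKM in control. The groups did not overlap, and both combined treatments lay between TGF-β alone and control. With TGF-β alone Cp fell 8.07-fold against control (-2.66 ± 0.11, adjusted p = 2.09e-05), the 50th largest fall of 12315. Against TGF-β alone it rose 3.78-fold with MetR (1.63 ± 0.11, adjusted p = 7.61e-05) and 5.04-fold with siHoxc8 (2.02 ± 0.11, adjusted p = 3.32e-05). Neither treatment brought it to the control level, since it stayed lower than control with MetR (46.8% of the control mean, -1.03 ± 0.11, adjusted p = 0.000212) and with siHoxc8 (62.5%, -0.65 ± 0.11, adjusted p = 0.00259).

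Slc40a1, the only known iron exporter gene of animal cells, was listed above 0 in 1 library, MetR replicate 1, at 0.0687 FPKM, and at 0 in the other 7. The number of reads behind a value above 0 in only 1 library cannot be recovered. No fold was computed for it. Fth1, the ferritin heavy chain gene, was listed at 0 in all 8 libraries. Ferritin genes resemble a number of pseudogenes closely, the counting of reads with several matches is not given in the sources used here, and a 0 is therefore reported only as listed. The light chain gene Ftl1, for which the same limit holds, had 25.2 and 24.5 FPKM with TGF-β and MetR, 8.80 and 9.52 FPKM with TGF-β and siHoxc8, 24.6 and 29.9 FPKM with TGF-β alone, and 11.4 and 11.5 FPKM in control. It rose with TGF-β against control (1.17 ± 0.12, adjusted p = 0.000381) and fell with siHoxc8 against TGF-β alone (-1.47 ± 0.12, adjusted p = 0.000121).

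Aco1, which encodes the cytosolic aconitase that doubles as IRP1, had 7.75 and 4.64 FPKM with TGF-β and MetR, 12.1 FPKM in both siHoxc8 libraries, 11.9 and 13.1 FPKM with TGF-β alone, and 12.5 and 14.0 FPKM in control. Only the MetR libraries stood apart, below the other 6. Aco1 fell with MetR against TGF-β alone (-0.94 ± 0.20, adjusted p = 0.00528) and was lower than control (-1.02 ± 0.20, adjusted p = 0.00328). Its values with siHoxc8 and TGF-β alone overlapped (-0.05 ± 0.20, adjusted p = 0.862), as did those with TGF-β alone and control (-0.07 ± 0.20, adjusted p = 0.789), and the sign of the last turned after rescaling of the libraries (0.13 by median ratio).

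Ireb2, the gene of IRP2, had 17.1 and 17.9 FPKM with TGF-β and MetR, 22.5 and 23.8 FPKM with TGF-β and siHoxc8, 21.9 and 19.6 FPKM with TGF-β alone, and 19.5 and 18.9 FPKM in control. The MetR libraries were the lowest and the siHoxc8 libraries the highest, within a narrow range. No comparison passed as deposited, with -0.23 ± 0.10 for MetR against TGF-β alone (adjusted p = 0.0828), 0.15 ± 0.10 for siHoxc8 against TGF-β alone (adjusted p = 0.247) and 0.10 ± 0.10 for TGF-β alone against control (adjusted p = 0.439). The MetR difference passed after median ratio rescaling (-0.44, adjusted p = 0.00707), with an adjusted p of 0.00481 to 0.292 over the alternatives. The difference between TGF-β alone and control also passed then (0.31, adjusted p = 0.0373, range 0.0373 to 0.866). With siHoxc8 against control Ireb2 differed by 0.26 ± 0.10 (adjusted p = 0.0653), which passed under 7 alternatives, among them median ratio rescaling (0.31, adjusted p = 0.0299) and library weights (adjusted p = 0.00478, range 0.00478 to 0.283).

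Steap3, the ferrireductase gene, had 30.4 and 24.3 FPKM with TGF-β and MetR, 22.4 and 22.5 FPKM with TGF-β and siHoxc8, 21.8 and 22.0 FPKM with TGF-β alone, and 19.6 and 17.3 FPKM in control. The control libraries were the lowest and the MetR libraries the highest. It was higher with MetR than in control (0.54 ± 0.13, adjusted p = 0.0077), a call lost without control replicate 2 (adjusted p = 0.0668). Against TGF-β alone it did not pass with MetR (0.30 ± 0.13, adjusted p = 0.0764; leaving out MetR replicate 2 took it past the threshold, at 0.46 and 0.00902, the lowest of a range up to 0.641) or siHoxc8 (0.04 ± 0.13, adjusted p = 0.84, -0.12 by median ratio). The comparison of TGF-β alone with control did not pass as deposited (0.24 ± 0.13, adjusted p = 0.171) and passed after median ratio rescaling (0.45, adjusted p = 0.0354, range 0.0338 to 0.544 over the alternatives).

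Slc11a2, the gene of the endosomal iron transporter, had 15.7 and 17.7 FPKM with TGF-β and MetR, 14.0 and 15.1 FPKM with TGF-β and siHoxc8, 16.7 and 15.6 FPKM with TGF-β alone, and 15.9 and 15.8 FPKM in control. The siHoxc8 libraries were the lowest, and the other groups overlapped. The change was 0.05 ± 0.10 with MetR against TGF-β alone (adjusted p = 0.719, -0.16 by median ratio), -0.14 ± 0.10 with siHoxc8 against TGF-β alone (adjusted p = 0.303) and 0.02 ± 0.10 with TGF-β alone against control (adjusted p = 0.874). The siHoxc8 difference passed after median ratio rescaling (-0.30, adjusted p = 0.0398, range 0.0311 to 0.683 over the alternatives).

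**Figure D3:**
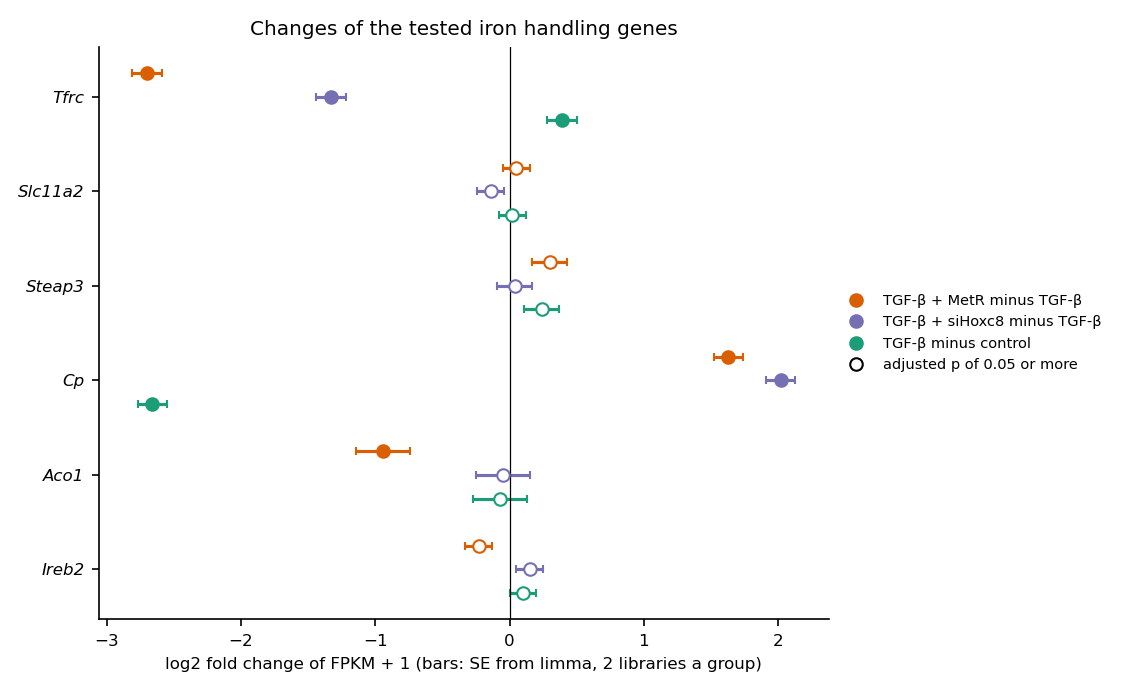
Log2 fold change of FPKM + 1 with its SE from limma (horizontal axis) for the 6 tested genes other than Scara5 (vertical axis) in 3 comparisons, with filled points where the adjusted p is under 0.05. Tfrc and Cp lie on opposite sides of 0 in each comparison, and Aco1 is filled only for MetR against TGF-β alone.

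Counted over the 6 tested genes other than Scara5, 3 were called with MetR against TGF-β alone (Cp raised, Tfrc and Aco1 lowered), where 53.9% of all 12315 tested genes were called (34.8% raised and 19.0% lowered). With siHoxc8 against TGF-β alone 2 of 6 were called (Cp raised, Tfrc lowered), against 43.8% of all genes (28.1% raised and 15.7% lowered). With TGF-β alone against control 2 of 6 were called (Tfrc raised, Cp lowered), against 38.9% of all genes (10.3% raised and 28.6% lowered). With MetR against control 4 of 6 were called (Steap3 raised, Tfrc, Cp and Aco1 lowered), against 57.3% of all genes (28.0% raised and 29.3% lowered). With siHoxc8 against control 2 of 6 were called (Tfrc and Cp lowered), against 48.7% of all genes (21.7% raised and 27.0% lowered). With MetR against control the count lies somewhat above the share of all genes, and in the other comparisons it lies below. With only 6 genes, such counts say nothing particular about them. The median log2 fold change of all tested genes was 0.18, 0.13 and -0.19 in the first 3 comparisons, and small changes are to be read against it.

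Other genes of the iron pathways were taken from 7 lists of 106 genes by role, of which 80 were tested. Of the 80, 31 rose and 16 fell with MetR against TGF-β alone (median 0.16), 22 rose and 12 fell with siHoxc8 against TGF-β alone (median 0.10), and 11 rose and 23 fell with TGF-β alone against control (median -0.20). The medians of all tested genes, given above, were nearly the same. The shares called were 58.8%, 42.5% and 42.5% of the 80, against 53.9%, 43.8% and 38.9% of all tested genes. After median ratio rescaling the counts were 23 and 21, 15 and 16, and 21 and 11, so that the balance of rises and falls turned in 2 of the 3 comparisons.

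In iron uptake and reduction, 4 of 10 tested genes rose and 2 fell with MetR against TGF-β alone, 2 rose and 1 fell with siHoxc8 against TGF-β alone, and 1 rose and 3 fell with TGF-β alone against control (by median ratio 3 and 3, 1 and 1, and 3 and 3). The shares called were 60.0%, 30.0% and 40.0%, against 53.9%, 43.8% and 38.9% of all tested genes. Steap1, a gene of the same family as Steap3, had 17.2 and 21.5 FPKM with MetR, 16.5 and 15.7 FPKM with siHoxc8, 4.72 and 7.10 FPKM with TGF-β alone, and 18.6 and 18.7 FPKM in control. Like Cp, it was lowest in both libraries with TGF-β alone. Steap1 rose with MetR (1.57 ± 0.18, adjusted p = 0.000421) and with siHoxc8 (1.33 ± 0.18, adjusted p = 0.00103) against TGF-β alone, and it fell with TGF-β alone against control (-1.53 ± 0.18, adjusted p = 0.000732). Its relative Steap2 rose with MetR against TGF-β alone (1.17 ± 0.19, adjusted p = 0.002) and fell with TGF-β alone against control (-2.0 ± 0.19, adjusted p = 0.000346). Lcn2, which encodes the siderophore-binding lipocalin 2, averaged 0.309 FPKM with TGF-β alone, against 8.63 FPKM in control (-2.88 ± 0.20, adjusted p = 9.72e-05). The level with TGF-β alone rests on 2 and 7 reads (0.139 and 0.480 FPKM), against 157 and 117 reads in control. Slc22a17, the gene of a lipocalin 2 receptor, fell with MetR against TGF-β alone (-1.21 ± 0.24, adjusted p = 0.00451).

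Among genes of iron storage and delivery, 2 of 6 rose and none fell with MetR against TGF-β alone. With siHoxc8 against TGF-β alone 1 rose (Pcbp2) and 1 fell (Ftl1), and with TGF-β alone against control 2 rose and 1 fell (by median ratio 1 and 1, 1 and 2, and 3 and 0). Called shares were thus 33.3%, 33.3% and 50%, against 53.9%, 43.8% and 38.9% of all tested genes. Pcbp2, an RNA-binding protein that also delivers iron to ferritin, averaged 255 FPKM with siHoxc8, against 128 FPKM with TGF-β alone (0.99 ± 0.09, adjusted p = 0.000166). Ncoa4, the receptor that takes ferritin to lysosomes, had 41.8 and 57.7 FPKM with MetR, against 33.6 and 33.9 FPKM with TGF-β alone (0.53 ± 0.14, adjusted p = 0.0166), a call lost after median ratio rescaling, with limma-voom, with only the 2 groups compared and without TGF-β replicate 1 or 2 (adjusted p = 0.0703, 0.0650, 0.0750, 0.0675 and 0.0663, lowest over the alternatives 0.000309) and with a 2-fold minimum.

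Of the export and systemic regulator genes, 4 of 9 were tested, and 1 rose and 1 fell with MetR against TGF-β alone, 1 rose and 1 fell with siHoxc8 against TGF-β alone, and 1 rose and 3 fell with TGF-β alone against control (by median ratio 1 and 1, 0 and 1, and 1 and 2). That is 50%, 50% and 100.0% of 4 genes, against 53.9%, 43.8% and 38.9% of all tested genes. Fbxl5, the iron-sensing ubiquitin ligase subunit that marks IRP2 for breakdown, had 58.9 and 57.2 FPKM with MetR, 25.5 and 26.3 FPKM with siHoxc8, 23.3 FPKM in both libraries with TGF-β alone, and 34.4 and 33.4 FPKM in control. The MetR libraries lay above all others. The rise with MetR was 1.28 ± 0.08 (adjusted p = 7.03e-05) and the fall with TGF-β alone against control -0.52 ± 0.08 (adjusted p = 0.00282). Bmp6, a ligand that in liver links iron stores to hepcidin, had 27.4 and 14.4 FPKM with MetR, 3.60 and 4.34 FPKM with siHoxc8, 40.9 and 30.2 FPKM with TGF-β alone, and 15.0 and 16.4 FPKM in control. It fell with siHoxc8 against TGF-β alone (-2.86 ± 0.28, adjusted p = 0.000258). Its rise with TGF-β alone over control (1.12 ± 0.28, adjusted p = 0.0164) was lost without either control library or TGF-β replicate 1 (adjusted p = 0.0909, 0.0669 and 0.1).

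**Figure D4:**
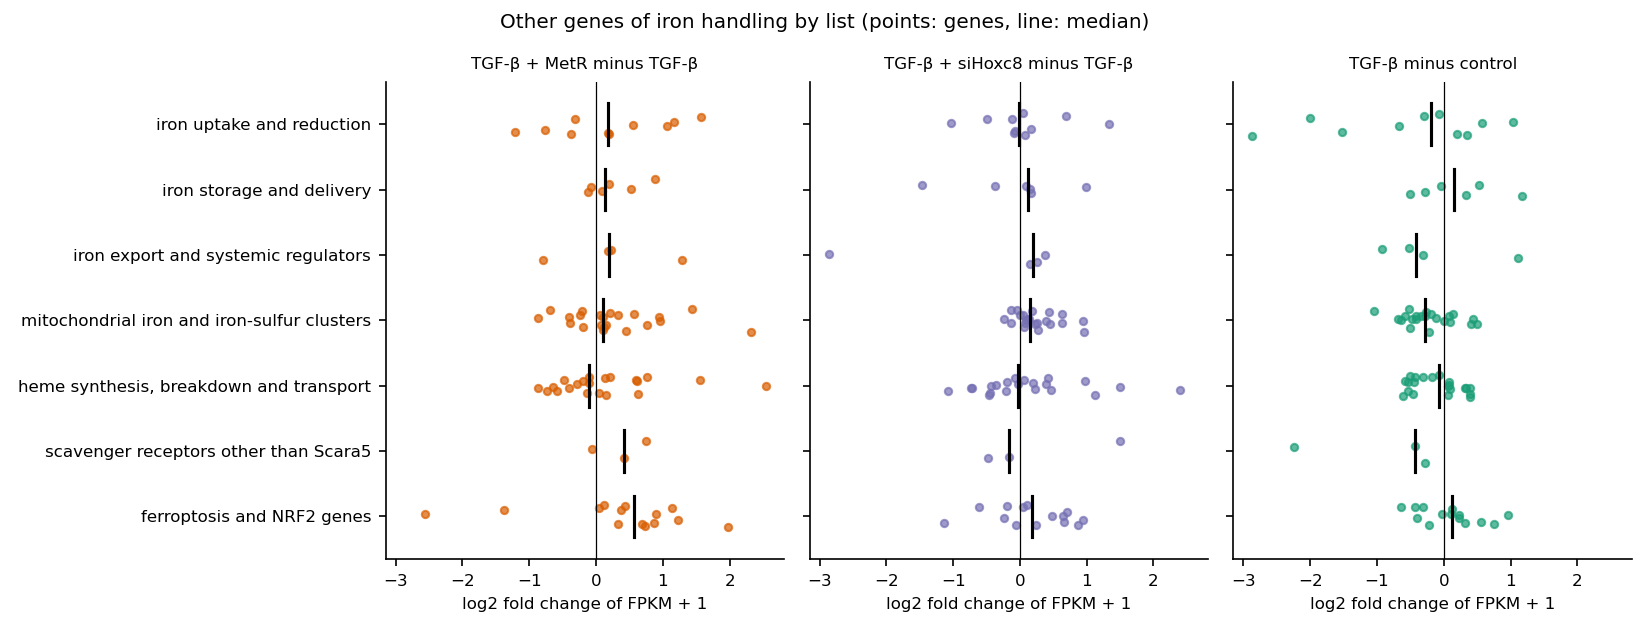
Log2 fold change of FPKM + 1 (horizontal axis) of each tested gene (points) in 7 lists of iron genes, with the list median (line), in 3 comparisons. The points lie on both sides of 0 in nearly every list, and the mitochondrial list reaches 2.33 with MetR (Slc25a37).

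For mitochondrial iron and iron-sulfur clusters, 8 of 22 tested genes rose and 4 fell with MetR against TGF-β alone (6 and 4 by median ratio), 6 rose and 0 fell with siHoxc8 against TGF-β alone (4 and 2 by median ratio), and 2 rose and 7 fell with TGF-β alone against control (4 and 2 by median ratio). The shares called were 54.5%, 27.3% and 40.9%, against 53.9%, 43.8% and 38.9% of all tested genes. Slc25a37, the gene of the mitochondrial iron importer mitoferrin 1, had 18.8 and 35.7 FPKM with MetR, 9.44 and 9.30 FPKM with siHoxc8, 4.93 and 3.87 FPKM with TGF-β alone, and 6.87 and 7.90 FPKM in control. It rose with MetR against TGF-β alone (2.33 ± 0.26, adjusted p = 0.000422), as did that of mitoferrin 2, Slc25a28 (1.44 ± 0.13, adjusted p = 0.00021). Lyrm4, which encodes a partner of the cysteine desulfurase that supplies sulfur to the clusters, rose with siHoxc8 against TGF-β alone (0.96 ± 0.16, adjusted p = 0.00264). Fdxr, the gene of ferredoxin reductase, fell with TGF-β alone against control (-1.04 ± 0.19, adjusted p = 0.00444).

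In heme synthesis, breakdown and transport, 5 of 21 tested genes rose and 7 fell with MetR against TGF-β alone, 5 rose and 7 fell with siHoxc8 against TGF-β alone, and 2 rose and 4 fell with TGF-β alone against control (by median ratio 4 and 10, 4 and 7, and 5 and 2). In all, 57.1%, 57.1% and 28.6% were called, against 53.9%, 43.8% and 38.9% of all tested genes. Hmox1, heme oxygenase 1, which frees iron from heme, had 73.7 and 85.1 FPKM with MetR, 72.4 and 70.8 FPKM with siHoxc8, 13.6 and 11.9 FPKM with TGF-β alone, and 19.0 and 20.9 FPKM in control. Both combined treatments lay above the other groups. The rises against TGF-β alone were 2.55 ± 0.11 with MetR (adjusted p = 2.69e-05) and 2.40 ± 0.11 with siHoxc8 (adjusted p = 2.46e-05). Flvcr1, listed here under heme transport, rose with siHoxc8 (1.5 ± 0.15, adjusted p = 0.000297) and with MetR (0.76 ± 0.15, adjusted p = 0.00437) against TGF-β alone. Fech, ferrochelatase, which puts iron into heme, fell with MetR against TGF-β alone (-0.86 ± 0.20, adjusted p = 0.00827).

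Among 9 scavenger receptor genes other than Scara5, Msr1, Marco and Colec12 of the same class were listed at 0 in every library, and 3 were tested. Of these 2 rose and 0 fell with MetR against TGF-β alone, 1 rose and 0 fell with siHoxc8 against TGF-β alone, and 0 rose and 2 fell with TGF-β alone against control (by median ratio 1 and 0, 1 and 1, and 0 and 1). This makes 66.7%, 33.3% and 66.7% of 3 genes, against 53.9%, 43.8% and 38.9% of all tested genes. Scara3, a class A member, had 12.5 and 7.02 FPKM with MetR, 6.95 and 6.54 FPKM with siHoxc8, 9.60 and 10.0 FPKM with TGF-β alone, and 51.4 and 49.2 FPKM in control. As with Scara5, the control libraries stood far above the other 6. Scara3 fell with TGF-β alone against control (-2.25 ± 0.22, adjusted p = 0.000336). Scarb1, a lipoprotein receptor gene, rose with siHoxc8 (1.5 ± 0.12, adjusted p = 0.000136) and MetR (0.74 ± 0.12, adjusted p = 0.00205) against TGF-β alone.

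Of 14 tested genes of ferroptosis, the iron-dependent form of cell death, and of the antioxidant factor NRF2, 9 rose and 2 fell with MetR against TGF-β alone (median 0.56, and 7 and 2 with a median of 0.36 by median ratio). With siHoxc8 against TGF-β alone 6 rose and 2 fell (median 0.18, and 4 and 2 with a median of 0.02 by median ratio), and with TGF-β alone against control 3 rose and 3 fell (5 and 1 by median ratio). The shares called were 78.6%, 57.1% and 42.9%, against 53.9%, 43.8% and 38.9% of all tested genes. Nqo1, a quinone reductase gene and NRF2 target, had 133 and 68.8 FPKM with MetR, 264 and 250.5 FPKM with siHoxc8, 541 and 597 FPKM with TGF-β alone, and 281 and 302 FPKM in control. The MetR libraries lay lowest and those with TGF-β alone highest, the same order as for Tfrc. Nqo1 fell with MetR against TGF-β alone (-2.55 ± 0.26, adjusted p = 0.00029). Chac1, a glutathione-degrading enzyme gene of the amino acid stress response, rose with MetR against TGF-β alone (1.98 ± 0.10, adjusted p = 4.23e-05), and Gclm, of glutathione synthesis, rose with siHoxc8 against TGF-β alone (0.95 ± 0.11, adjusted p = 0.000519).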

How the data were processed

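RNA of 8 libraries in 4 groups was analysed. The deposited table holds FPKM per gene, normalized by the authors. Per the submitters' processing notes, Trim Galore, Bowtie2 2.3.5.1, deepTools, featureCounts and the build rn6 were used in the series; the sources used here give neither their roles nor the annotation or strand handling, so reads of overlapping and antisense genes cannot be told apart. For all 19435 genes above 0 (100.0%) the values were whole multiples of 1 read within 0.02 reads, which gave 15118113 to 20146870 reads per library. A gene above 0 in only 1 library fits by construction. Very many multiples were tried, so genes above 0 in few libraries are also likely to fit. The smallest fitting numbers were taken. The recovered reads of genes seen in few libraries are therefore lower limits, and the 100.0% is partly fixed in advance.

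The 12315 genes that reached 1 FPKM in 2 or more libraries were tested on log2(FPKM + 1), a scale that understates the changes of low genes, with limma 3.58.1 in R 4.3.3. The fit took all 4 groups, with a mean-variance trend, 4 residual and 3.47 prior degrees of freedom, and Benjamini-Hochberg adjustment at 0.05. The fit was also run on simulated normal values with a small share of genes changed in a single group. That setting is unlike these data, where a large share of genes was called, so it cannot speak to the calls given here. Members and lists were chosen with earlier results of these data known. Named genes are the 9 members, Hoxc8, the 5 nearest to Scara5, and up to 3 genes per list and comparison with the largest called change and at least 5 FPKM in the higher group; not all of them are described. Alternatives were another pseudocount, other filters, median ratio and quantile scaling, library weights, limma-voom on recovered reads, only the groups compared, a replicate block, a 2-fold minimum and each library left out. Of the table's symbols 17436 were found in RefSeq. Ranges and intervals cover counting error only where they rest on reads.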

Additional observations from a re-analysis of the deposited data

How the results depend on the processing

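Of the calls on Tfrc and Cp, only the rise of Tfrc with TGF-β alone over control was lost when a library was left out. With a 2-fold minimum, the genes called numbered 2145 with MetR and 1544 with siHoxc8 against TGF-β alone, 1290 with TGF-β alone against control, and 2743 with MetR and 1881 with siHoxc8 against control. Leaving out 1 library gave 5252 to 7327 calls with MetR and 3152 to 6734 with siHoxc8 against TGF-β alone, 2320 to 6298 with TGF-β alone against control, and 5181 to 7656 with MetR and 3843 to 7200 with siHoxc8 against control, the lowest counts of TGF-β alone against control without control replicate 1 (2320) or 2 (2472). The 6 genes gave 3 to 4, 2 to 2, 1 to 3, 3 to 4 and 2 to 4 calls in the same order. The lone library of a group is then assumed to vary like the others. After median ratio rescaling the genes raised and lowered were 3165 and 3264 with MetR (main 4289 and 2345) and 2591 and 2718 with siHoxc8 (main 3460 and 1934) against TGF-β alone, and 2274 and 2140 with TGF-β alone against control (main 1269 and 3523). Of the 6 genes, the count called with TGF-β alone against control was 4 by median ratio and by limma-voom and 1 with a 2-fold minimum; with siHoxc8 against control it was 4 with library weights and with only the 2 groups compared, and 0 with a 2-fold minimum. The sign of small changes turned by median ratio, quantile and limma-voom for Slc11a2 with MetR against TGF-β alone (-0.16, -0.21 and -0.17), Steap3 with siHoxc8 against TGF-β alone (-0.12, -0.09 and -0.13) and Aco1 with TGF-β alone against control (0.13, 0.17 and 0.13), and by median ratio and limma-voom for Ireb2 with siHoxc8 against TGF-β alone (-0.01 and -0.0). Leaving out 1 library also turned it for Slc11a2 without MetR replicate 2 (range -0.03 to 0.13 against TGF-β alone; against control the range was -0.01 to 0.15) and without TGF-β replicate 1 (range -0.02 to 0.07, TGF-β alone against control), and for Aco1 without control replicate 2 (range -0.15 to 0.0, TGF-β alone against control) and without TGF-β replicate 2 (range -0.11 to 0.02, siHoxc8 against TGF-β alone). The causes were not tested. Of the 6 correlations between same-numbered libraries' deviations (across genes, -0.02 to 0.202), only that of MetR with TGF-β alone was over 0.1, so the numbers were not taken to pair the libraries; with a replicate block 6639, 5424, 4750, 7044 and 6011 genes were called in the same order of comparisons, and no call on a named gene was lost. The 8 and 3 Scara5 reads with siHoxc8 limit the precision of that level.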
